A study of Mus musculus with 12 samples.

Results

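The integrin, cadherin and protocadherin adhesion receptors were the probe sets whose platform annotation gives 1 gene symbol of the form Itga or Itgb with a number, an integrin letter name such as Itgav or Itgax, or Cdh or Pcdh with a number or letters. This gave 52 probe sets for 35 genes, out of 12422 probe sets for 8251 named genes on the array. They divide into 21 probe sets for 12 integrin alpha subunits, 10 for 7 integrin beta subunits, 18 for 14 cadherins and 3 for 2 protocadherins. A further 8 probe sets carry the symbols of several protocadherin alpha genes and are given apart, and 3 probe sets for Itgb1bp1, a protein that binds an integrin tail and is no receptor, were left out.

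The signals came from mouse embryonic fibroblasts (MEFs) of the genotype KSR1-/- on a DBA background, so that by its label every line lacked its own KSR1, which holds Raf, MEK and ERK together as a scaffold. The GFP line carried only green fluorescent protein (GFP). Of the others, one carried H-RasV12 (an oncogenic form of the GTPase H-Ras) and GFP, another KSR1 and GFP, and the last KSR1, H-RasV12 and GFP, here the double line. Each line was read on 3 Affymetrix arrays, and all 4 lines carried GFP. The layout asks what KSR1 and H-RasV12, singly and together, do to mRNA levels in cells without their own KSR1. Each condition is 1 cell line, and nothing states that its 3 arrays came from separate cultures. All p-values below thus rest on array-to-array spread alone, which may be technical. A lower signal from fewer expressing cells cannot be told apart from less RNA per cell.

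Integrins are pairs of 1 alpha and 1 beta subunit that span the membrane, bind matrix proteins such as laminin, fibronectin and collagen outside the cell, and couple to actin inside it through an adhesion plaque. Cadherins bind one another between neighbouring cells in the presence of calcium and hold catenins on their cytoplasmic tails. Protocadherins share the outer repeats of cadherins but lack the catenin-binding tail. Fibroblasts are known for fibronectin-binding and vitronectin-binding integrins and for N-cadherin and cadherin-11, while E-cadherin and P-cadherin are known from epithelia.

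A receptor probe set was counted as expressed in a line when its signal exceeded 181.4, the median of all values in the table, on all 3 arrays. By this rule 11 of the 52 probe sets were expressed in the GFP line, 11 in the H-RasV12 line, 16 in the KSR1 line and 10 in the double line. Altogether 16 probe sets for 11 genes were expressed in at least 1 line, which is 30.8%, against 51.4% of all probe sets on the array. The 9 probe sets expressed in all 4 lines belonged to 7 genes: Itgav, Itgb1, Itgb5, Itgb7, Cdh1, Cdh2 and Cdh3. At the other end, 31 of the 52 were under the median on all 12 arrays. The deposited table has no detection calls, so this level is a convention: the fibroblast marker Vim read 29.6 to 128 and thus lay below it on every array.

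Of the 52 receptor probe sets, 17 for 12 genes exceeded the median on at least 3 of the 12 arrays and entered the test, against 55.5% of all probe sets. Some entered only through the line where they were bright, as Itga3 (104210_at) and Itga6 did through the KSR1 line. Counts among the 17 thus describe them and support nothing by themselves. The test was 1 limma fit on log2(signal + 23), with p-values adjusted over all 6897 tested probe sets and a call at an adjusted p under 0.05. With KSR1 against GFP, 6 of the 17 rose and none fell, where 11.8% of all tested probe sets were called. With the double line against KSR1, 6 fell and none rose, where 15.1% of all were called. Some genes count more than once: both Itga3 probe sets are in each count, and both Itgb5 probe sets in the second. These comparisons share the KSR1 arrays, so a receptor that read high on those arrays moves both.

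**Figure D1:**
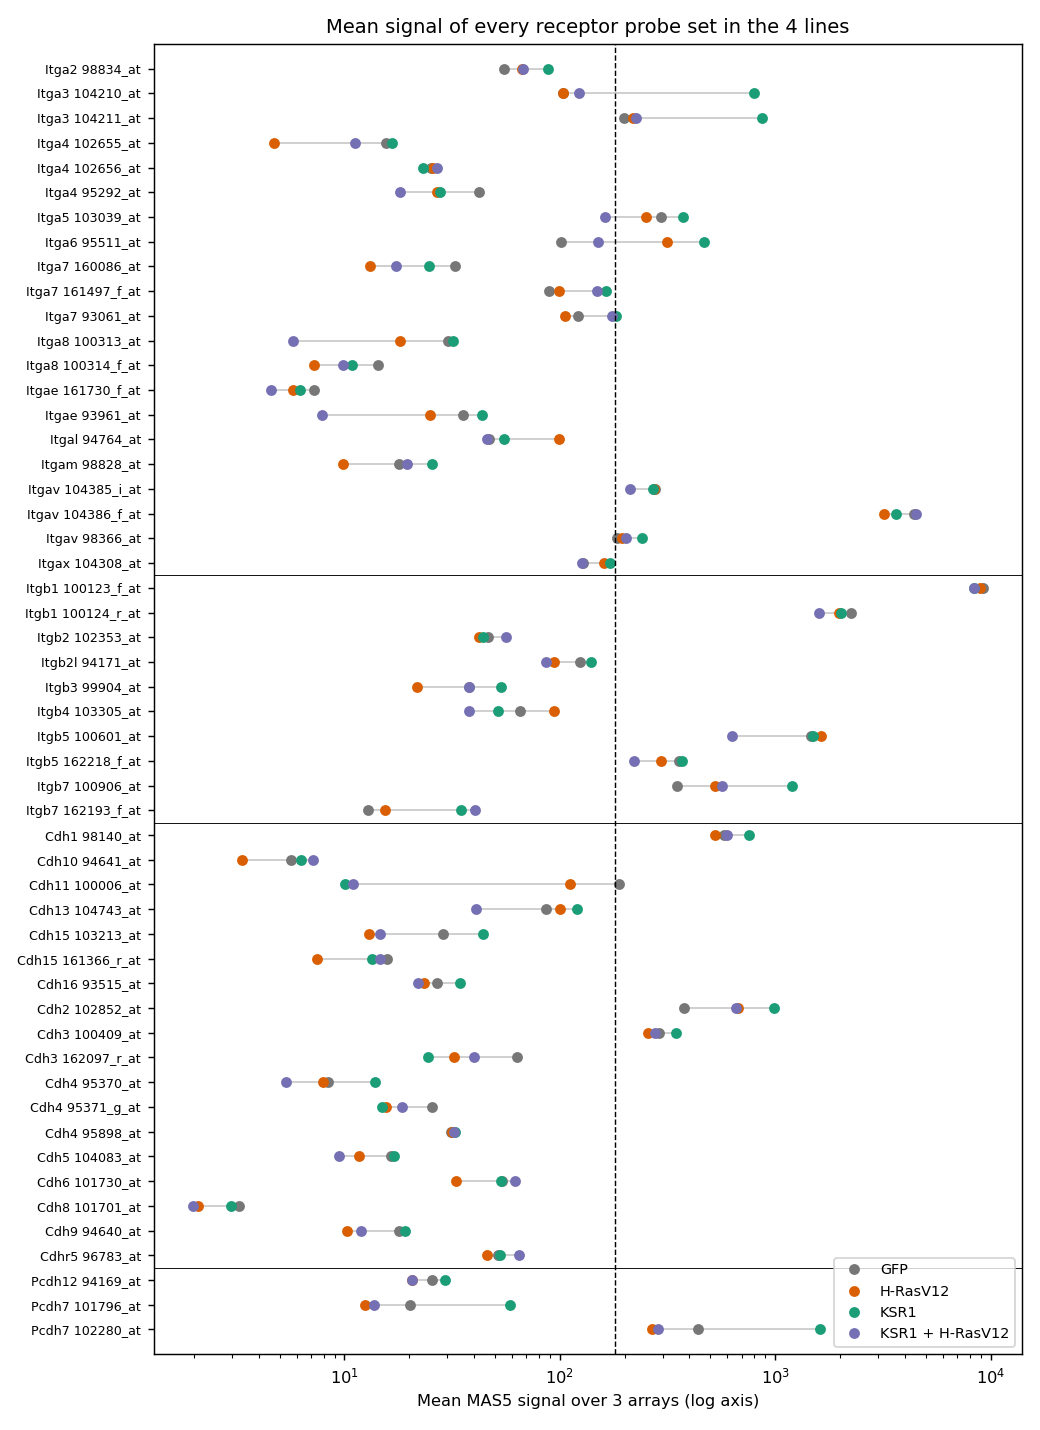
Mean MAS5 signal over 3 arrays (log axis) of each of the 52 receptor probe sets in the 4 lines, with integrin alpha subunits, integrin beta subunits, cadherins and protocadherins divided by horizontal lines and the median of all values, 181.4, as a dashed line. The KSR1 line (green) lies far to the right of the other lines at Itga3 and Pcdh7, while most receptors lie left of the dashed line in every line.

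Among the integrin alpha subunits, Itga3 and Itga6 changed. Both encode laminin receptors of the alpha3 and alpha6 type, which pair with beta1 (Itgb1) and, for alpha6, also with beta4 (Itgb4). Itga3 has 2 probe sets, and both were several-fold higher in the KSR1 line than in the other 3 lines.

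The first Itga3 probe set (104210_at) read 147, 54.2 and 108 on the GFP arrays and 44.2, 158 and 110 on the H-RasV12 arrays. It read 908, 959 and 519 on the KSR1 arrays and 196, 91.4 and 82.6 on those of the double line. All 3 KSR1 arrays lay above all 9 others, and the other 3 lines overlapped one another. The log2 difference between KSR1 and GFP was 2.72 ± 0.42 (SE), a 6.61-fold rise (limma adjusted p = 0.000546). From KSR1 to the double line it fell by 2.52 ± 0.42 on the log2 scale (limma adjusted p = 0.000866).

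The second Itga3 probe set (104211_at) read 251, 195 and 153 with GFP and 193, 256 and 209 with H-RasV12. It read 824, 1283 and 506 with KSR1 and 234, 258 and 186 in the double line. Again the KSR1 arrays stood above the rest without overlap, and by the rule above this probe set was expressed in every line but GFP. The rise with KSR1 was 1.93 ± 0.29 on the log2 scale (limma adjusted p = 0.000444), and the fall from KSR1 to the double line was -1.76 ± 0.29 (limma adjusted p = 0.000839). On both probe sets the double line differed from GFP by no more than 0.21 on the log2 scale (limma adjusted p = 0.826 and 0.778). Their standard errors there were 0.42 and 0.29.

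Itga6 read 94.6, 99.6 and 110 with GFP, 154, 415 and 373 with H-RasV12, 514, 316 and 578 with KSR1, and 161, 158 and 132 in the double line. The GFP arrays were the lowest, the KSR1 arrays were all above both GFP and the double line, and the H-RasV12 arrays were split between 1 low array and 2 high ones. Itga6 rose by 1.95 ± 0.32 on the log2 scale with KSR1 (limma adjusted p = 0.000998) and fell by 1.47 ± 0.32 from KSR1 to the double line (limma adjusted p = 0.00616). Its difference between H-RasV12 and GFP, 1.33 ± 0.32, did not pass (limma adjusted p = 0.226), though all 3 H-RasV12 arrays exceeded all 3 GFP arrays. Without the low H-RasV12 array, replicate 1, that difference was 1.75 and passed (limma adjusted p = 0.0175), as did the double line against H-RasV12 at -1.27 (limma adjusted p = 0.00914 against 0.0957 with all arrays).

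The remaining alpha subunits with enough signal to test made no call in any comparison. Itga5, the alpha subunit of the main fibronectin receptor, read 515, 117 and 258 with GFP, 145, 343 and 264 with H-RasV12, 499, 430 and 195 with KSR1, and 276, 153 and 57.4 in the double line. Its arrays varied within each line as much as between lines, and its largest difference, the double line against KSR1, was -1.20 ± 0.53 on the log2 scale (limma adjusted p = 0.156). Itgav, the alpha subunit shared by the vitronectin receptors, has 3 probe sets. On probe set 104386_f_at Itgav read 3603, 5090 and 4502 with GFP, 3358, 3125 and 3164 with H-RasV12, 3374, 3319 and 4220 with KSR1, and 3529, 5368 and 4564 in the double line. The H-RasV12 arrays were the lowest of the 4 lines but for an overlap with KSR1, and the difference from GFP, -0.44 ± 0.19, did not pass (limma adjusted p = 0.82). The other Itgav probe sets ranged from 129 to 335 over all arrays, and Itga7 (93061_at), a laminin receptor known from muscle, ranged from 33.2 to 280.3.

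The alpha subunits expressed in no line by this rule included collagen-binding Itga2 (43.3 to 93.2) and Itga8 (4.37 to 58.4 over 2 probe sets). They also included Itga4, which ranged from 1.29 to 70.1 over its 3 probe sets. The leukocyte subunits were dim as well: Itgal reached at most 117, Itgam from 5.72 to 47.9, Itgae from 2.71 to 98.7 over 2 probe sets, and Itgax from 39.9 to 192. No Itga7 probe set, the tested 93061_at included, was expressed in any line by this rule, although 161497_f_at reached 299.2 on 1 KSR1 array.

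**Figure D2:**
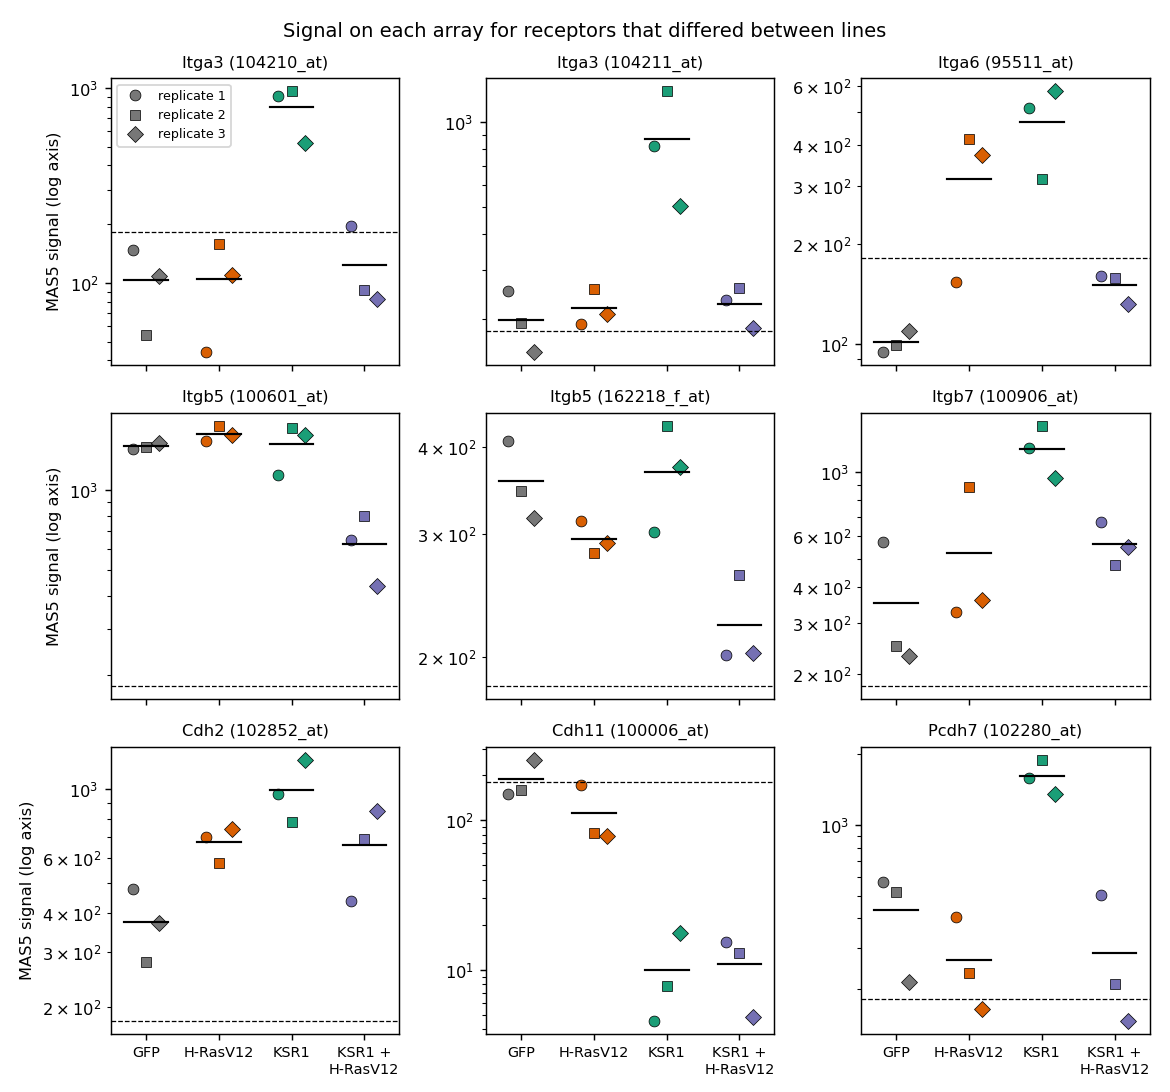
MAS5 signal on each array (log axis, a scale per panel) of 9 receptor probe sets in the 4 lines, with bars at the mean of 3 arrays and the median of all values, 181.4, as a dashed line. Itga3, Itgb7 and Pcdh7 are highest on the KSR1 arrays, Itgb5 (100601_at) is lowest on the double line's arrays, and Cdh11 is low on all 6 arrays of the lines with KSR1.

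Among the beta subunits, Itgb5 was lower in the double line and Itgb7 higher in the KSR1 line. Itgb5 pairs with Itgav in a vitronectin receptor. Its main probe set (100601_at) read 1431, 1457 and 1514 with GFP, 1531, 1754 and 1623 with H-RasV12, and 1143, 1725 and 1624 with KSR1. In the double line it read 647, 800.2 and 435, below all 9 other arrays. GFP, H-RasV12 and KSR1 lay close together, with KSR1 against GFP at 0.01 ± 0.22 on the log2 scale (limma adjusted p = 0.99).

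The fall of Itgb5 in the double line was -1.24 ± 0.22 against KSR1 (limma adjusted p = 0.00119), -1.39 ± 0.22 against H-RasV12 (0.000471) and -1.24 ± 0.22 against GFP (0.00111). That was 2.36-fold to 2.62-fold lower. The second Itgb5 probe set (162218_f_at) read 408, 346 and 316, then 313, 282 and 292, then 302, 429 and 374, and in the double line 201, 262 and 202. It was also lowest on average in the double line, by 0.67 ± 0.20 on the log2 scale against KSR1 (limma adjusted p = 0.0356) and 0.64 ± 0.20 against GFP (limma adjusted p = 0.0443). Against H-RasV12 it was not called, at -0.39 ± 0.20 (limma adjusted p = 0.242). The calls of this second probe set were lost under 11 and 14 of 22 alternative settings or left-out arrays, with adjusted p up to 0.146 and 0.216. The left-out arrays among these were H-RasV12 replicates 2 and 3, KSR1 replicates 2 and 3 and double-line replicates 1 and 3 for the first call. For the second they were every GFP and H-RasV12 array in turn, KSR1 replicate 3 and double-line replicates 1 and 3.

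Itgb7, known as the partner of Itga4 and Itgae in lymphocyte homing receptors, read 574, 249 and 231 with GFP on its tested probe set (100906_at) and 327, 886 and 362 with H-RasV12. It read 1211, 1444 and 953 with KSR1 and 670, 476 and 549 in the double line. The KSR1 arrays lay above all others, by 1.81 ± 0.36 on the log2 scale over GFP (limma adjusted p = 0.00432). The double line stood between, at -1.05 ± 0.36 from KSR1 (limma adjusted p = 0.0691, and 0.0482 with the replicate number as a block). Its other probe set (162193_f_at) read 11.8 to 63.1 on the 12 arrays and was not tested. Both known partner subunits, Itga4 and Itgae, were expressed in no line. Of 10 leukocyte markers on the array, Ptprc, the defining one, read 5.67 to 27.4, while Cd14 was expressed in every line and read 1004 to 1368 with GFP, 1068 to 1275 with H-RasV12, 1712 to 3024 with KSR1 and 1343 to 1595 in the double line. Laptm5, expressed in every line but the double line, read 220.3 to 232 with GFP and 263 to 368 with KSR1. Csf1r read 541 on GFP replicate 1 and 567 on KSR1 replicate 1, and 46.5 to 168 on the other arrays. Coro1a (152 and 193.5) and Tyrobp (84.1 and 132) were also highest on these arrays. Adgre1, Lyz2, Cd3e and Fcer1g read at most 59.85. GFP replicate 1 was also the highest GFP array for Itgb7, while KSR1 replicate 1 was not the highest KSR1 array. The part of leukocytes in the Itgb7 signal was not tested.

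Itgb1, the beta subunit shared by most matrix-binding integrins, read 7361 to 11470 on its first probe set and 1215 to 2581 on its second, and neither was called in any comparison. For the first probe set the mean signals were 9220 ± 1980 (SD, n = 3) with GFP, 8923 ± 1980 with H-RasV12, 8387 ± 1320 with KSR1 and 8369 ± 1150 in the double line. Thus Itga3 and Itga6 differed severalfold between lines while the log2 difference of their known partner between KSR1 and GFP was -0.13 ± 0.21 (limma adjusted p = 0.766). Itgb4, the epithelial partner of Itga6, ranged from 18.1 to 101.1, Itgb3 from 5.86 to 90.4, the leukocyte subunit Itgb2 from 10.6 to 78.0 and the related Itgb2l from 54.0 to 222. These 4 were expressed in no line.

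Of the cadherins, Cdh2, the N-cadherin typical of fibroblasts and neurons, changed. Cdh2 read 478, 278 and 371 with GFP, 702, 578 and 742 with H-RasV12, 959.9, 783.5 and 1233 with KSR1, and 436, 691 and 849.5 in the double line. GFP was lowest, KSR1 lay above both GFP and H-RasV12 on all arrays, and the double line spread over the range of the others. The rise with KSR1 over GFP was 1.35 ± 0.26 on the log2 scale (limma adjusted p = 0.00301). The H-RasV12 line also read above GFP on all arrays, by 0.83 ± 0.26, without passing (limma adjusted p = 0.424), and the double line differed from GFP by 0.76 ± 0.26 (limma adjusted p = 0.0652, and 0.037 with the replicate number as a block).

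Cdh1, the E-cadherin of epithelia, and Cdh3, the P-cadherin, were expressed in all 4 lines by the signal rule and made no call. Cdh1 read 704, 575 and 460 with GFP, 419, 631 and 526.5 with H-RasV12, 751, 994 and 528 with KSR1, and 411, 793 and 580.2 in the double line. The 4 lines overlapped throughout. Cdh3 ranged from 229 to 412.5 on its tested probe set and from 10.4 to 96.7 on the other. Of the 10 epithelial markers 8 were expressed in no line, among them Epcam at 2.52 to 31.4, Krt8 at 7.67 to 32.3 and Krt18 at 31.4 to 85.0. The other 2 were expressed in lines with KSR1, Krt19 in both and Cldn3, at 397 to 571, in the KSR1 line. Each of these rests on 1 probe set, and what else the Cdh1 probe set may bind was not tested.

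Cdh11, the mesenchymal cadherin-11, was expressed in no line by the signal rule and lay outside the main test, but its signal separated the lines. It read 150, 160 and 253 with GFP, 173, 82.6 and 78.6 with H-RasV12, 4.56, 7.84 and 17.7 with KSR1, and 15.3, 12.9 and 4.80 in the double line. All 6 arrays of the lines with KSR1 lay below all 6 arrays of the lines without it. In a limma fit of all 12422 probe sets without the filter, Cdh11 differed by -2.66 ± 0.32 between KSR1 and GFP (adjusted p = 0.00023), by -1.93 ± 0.32 between the double line and H-RasV12 (0.00178) and by -2.61 ± 0.32 between the double line and GFP (0.000181). The added 23 exceeds all 6 low values, so these log2 differences understate the ratio of the signals.

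The other cadherins were expressed in no line. Cdh13, the cadherin held by a lipid anchor, ranged from 8.37 to 165, Cdh6 from 13.0 to 96.8, the gut protein Cdhr5 from 16.0 to 128 and the muscle cadherin Cdh15 from 2.31 to 89.8 over 2 probe sets. Cdh5, the VE-cadherin of endothelium, ranged from 6.10 to 25.3. Cdh4 had 3 probe sets between 2.16 and 41.1, the kidney cadherin Cdh16 ranged from 14.8 to 44.1, and the neural cadherins Cdh8, Cdh9 and Cdh10 reached at most 5.97, 33.4 and 10.7. None of these 10 genes was tested in the main fit.

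Pcdh7, a protocadherin that signals through binding partners other than catenins, had, beside the first Itga3 probe set, the largest fall of the tested receptors from KSR1 to the double line. Its tested probe set (102280_at) read 574, 519.6 and 216 with GFP, 404, 234 and 164.5 with H-RasV12, 1583, 1884 and 1355 with KSR1, and 503, 209.9 and 147 in the double line. The KSR1 arrays stood well above the rest, and the other 3 lines overlapped. Pcdh7 rose by 1.92 ± 0.42 on the log2 scale with KSR1 (limma adjusted p = 0.00754) and fell by 2.55 ± 0.42 from KSR1 to the double line (limma adjusted p = 0.000803), a 5.87-fold difference. Its second probe set (101796_at) stayed between 7.52 and 136 and Pcdh12, known from endothelium, between 17.0 and 39.4. Of the 8 probe sets shared by protocadherin alpha genes, 3 were tested and none was called in any of the 6 comparisons. One of those 3 was expressed in all 4 lines, at 538 to 2547, 1 in the H-RasV12 and double lines, and 1 in the KSR1 line. In the fit without the filter, 1 dim probe set of the 8 read 2.57 to 2.92 with KSR1 and was called lower than GFP, by -0.96 ± 0.25 on the log2 scale (limma adjusted p = 0.0369), and higher in the double line than with KSR1, by 0.92 ± 0.25 (limma adjusted p = 0.0371).

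The promoters of Itga3, Pcdh7 and Itgb5 are shown because Itga3 and Pcdh7 were high in the KSR1 line and Itgb5 had another pattern, low in the double line. RefSeq promoter windows of GRCm38.p6 were found for 19 of the 35 genes, with 20 transcription starts. The windows hold the 250 bases before the start, 5′ to 3′ on the gene's strand. Capitals mark a Snail E-box (CACCTG on either strand) or an Ets core (CCGGAA on either strand). Itga3 lies at chr11:95076715-95076964 on the minus strand, Pcdh7 at chr5:57717831-57718080 on the plus strand and Itgb5 at chr16:33829415-33829664 on the plus strand.
Itga3: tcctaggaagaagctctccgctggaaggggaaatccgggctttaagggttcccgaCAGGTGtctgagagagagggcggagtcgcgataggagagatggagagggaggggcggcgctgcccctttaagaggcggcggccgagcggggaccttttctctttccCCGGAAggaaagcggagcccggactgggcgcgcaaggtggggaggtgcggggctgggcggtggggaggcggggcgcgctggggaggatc
Pcdh7: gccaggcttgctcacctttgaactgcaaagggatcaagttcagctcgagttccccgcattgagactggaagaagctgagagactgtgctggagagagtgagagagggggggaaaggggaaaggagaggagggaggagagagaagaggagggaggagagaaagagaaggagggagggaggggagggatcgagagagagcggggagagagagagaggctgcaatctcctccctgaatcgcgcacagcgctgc
Itgb5: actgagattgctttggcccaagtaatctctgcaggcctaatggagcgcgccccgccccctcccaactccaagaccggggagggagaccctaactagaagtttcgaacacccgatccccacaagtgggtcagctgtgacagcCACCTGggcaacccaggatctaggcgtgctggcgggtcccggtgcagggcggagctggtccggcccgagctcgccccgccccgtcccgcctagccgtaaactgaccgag
The Itga3 window holds the E-box on its opposite strand, 195 bases before the start and read above as its reverse complement, and an Ets core 89 bases before the start. The Itgb5 window holds an E-box 109 bases before the start, and the Pcdh7 window holds neither motif. The AP-1 letters TGANTCA, searched on both strands too, are in none of the 3 windows. Of all 32851 windows of this length 17.2% hold the E-box, 12% the Ets core and 6.75% the AP-1 letters, and of the 20 receptor windows 2, 1 and 1 do. No match overlapped another, and a match describes letters, not binding.

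Across the comparisons, the receptors' counts were read against all tested probe sets. H-RasV12 against GFP called none of the 17 receptors in limma, with 3 at an unadjusted p under 0.05, and only 0.0725% of all tested probe sets. In this comparison the fit without a filter also called none, with 4 receptors at an unadjusted p under 0.05 and 0.0644% of all called. Over all 52 receptor probe sets, in the fit without a filter, the median log2 difference was -0.12 there, 0.07 for KSR1 against GFP and -0.27 for the double line against KSR1. The same medians over all 12422 probe sets were -0.01, 0.07 and -0.11. The receptors as a whole thus had the median of the array for KSR1 against GFP and lay below it in the other comparisons given here. Of the 52, 31 were under 181.4 on all 12 arrays, and the added 23 shrinks the log2 differences of dim probe sets.

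The double line against H-RasV12 called 1 of the 17, Itgb5, where 14.8% of all tested probe sets were called, and against GFP it called 2, both Itgb5, where 15.6% were called. These shares, 5.88% and 11.8% of the 17, were no higher than the background. The Itga3, Itga6, Itgb7, Cdh2 and Pcdh7 probe sets that rose with KSR1 against GFP made no call in either of these comparisons.

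The interaction asks whether the difference between lines with and without H-RasV12 was the same with KSR1 as without it. The KSR1 arrays enter it too, so a receptor that read high on those arrays moves it as well. The interaction called 5 of the 17, all with a negative term, where 7.70% of all tested probe sets were called. These were Itga6 at -2.80 ± 0.46 (limma adjusted p = 0.00179), both Itga3 probe sets, Cdh2 and the first Itgb5 probe set. The second Itgb5 probe set was not called, at -0.42 ± 0.28 (limma adjusted p = 0.452). Itga6 stood 1.33 above GFP in the H-RasV12 line and 1.47 below KSR1 in the double line on the log2 scale. For Pcdh7 the interaction was -1.92 ± 0.59 (limma adjusted p = 0.0672) and for Itgb7 -1.58 ± 0.51 (limma adjusted p = 0.0828), so neither passed. With the replicate number as a block Pcdh7 passed (limma adjusted p = 0.00559) and Itgb7 did not (0.055).

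**Figure D3:**
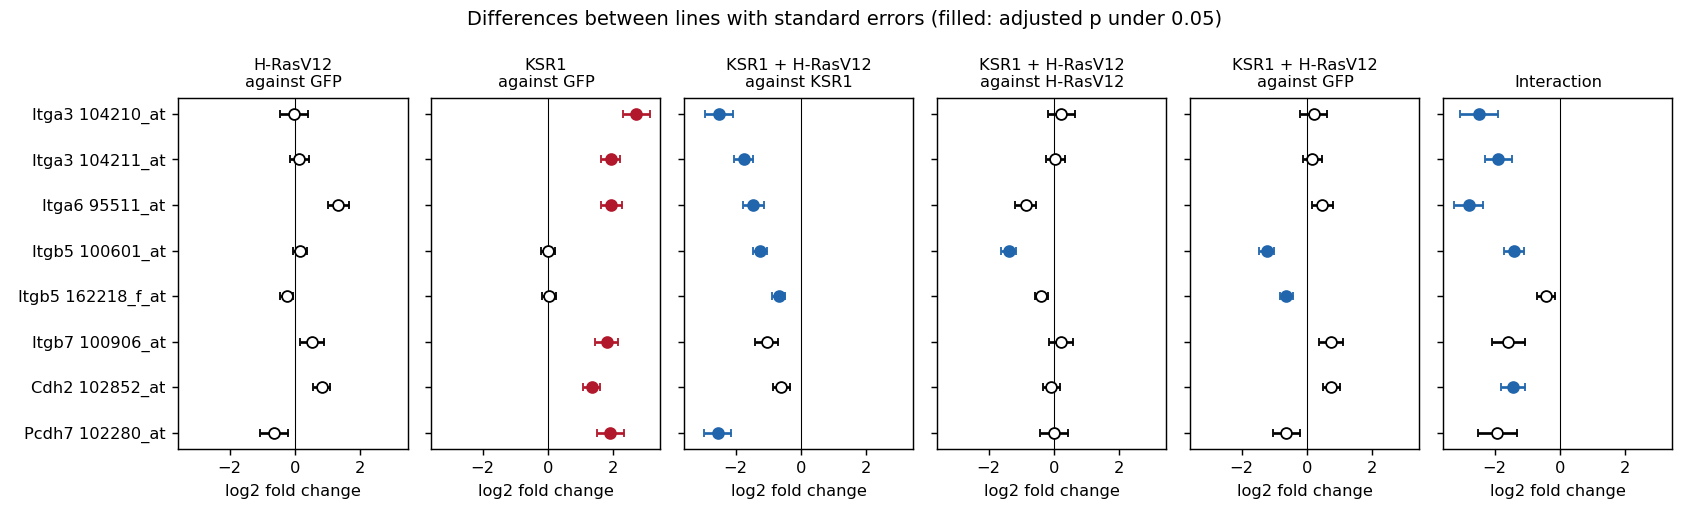
Log2 differences (points) with standard errors (bars) of 8 receptor probe sets in the 5 comparisons between lines and the interaction, filled where the limma adjusted p is under 0.05. The Itga3 and Pcdh7 probe sets lie right of 0 for KSR1 against GFP and left of 0 for the double line against KSR1, and Itgb5 lies left of 0 wherever the double line enters.

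Without the filter on dim signals all 52 receptor probe sets entered the fit. KSR1 against GFP then called 7 (6 higher, and Cdh11 lower), which is 13.5% of the 52 against 6.08% of all 12422 probe sets. The double line against KSR1 called 5, all lower, which is 9.62% against 7.63% of all. The double line against H-RasV12 called Cdh11 and Itgb5, 3.85% against 7.86% of all, and against GFP the same pair of genes, 3.85% against 8.41%. The interaction called 4, 7.69% against 3.53% of all.

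The partners of these receptors were taken from lists chosen with results of these data known, with 1 probe set per gene. Of all tested probe sets 0.0725% were called for H-RasV12 against GFP and 11.8% for KSR1 against GFP. For the double line the shares were 15.1% against KSR1, 14.8% against H-RasV12 and 15.6% against GFP. Of the adhesion plaque and signalling genes 19 of 30 were on the array and 16 were tested. None was called for H-RasV12 or KSR1 against GFP. Talin (Tln1), which activates integrins, read 4101 ± 682 (SD, n = 3) with GFP and 3962 ± 495 with KSR1, and vinculin (Vcl) 5663 ± 1450 and 5922 ± 1870. From KSR1 to the double line Lims1 rose by 0.76 ± 0.21 on the log2 scale, while Vasp, an actin regulator, and Tgfb1i1, a paxillin relative, fell by 0.95 ± 0.28 and 0.74 ± 0.21 (limma adjusted p = 0.0269, 0.0335 and 0.0252). Tgfb1i1 was also the 1 plaque gene called against H-RasV12, and with Lpp and Rsu1 it made up the 3 that fell against GFP.

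All 13 integrin-associated membrane proteins on the list were tested. With KSR1 against GFP 3 rose: the urokinase receptor Plaur (1.77 ± 0.24), the hyaluronan receptor Cd44 (1.47 ± 0.35) and the tetraspanin Cd9 (0.68 ± 0.20). In the same comparison Cd47 and the syndecan Sdc2 fell by 1.19 ± 0.23 and 1.07 ± 0.22. From KSR1 to the double line Plaur fell by 1.39 ± 0.24 (limma adjusted p = 0.00108) and Sdc1 by 1.07 ± 0.24, and Tspan4 rose by 0.65 ± 0.19. Plaur thus read high in the KSR1 line alone, at 1130 ± 111 against 315.5 ± 53 with GFP. Against H-RasV12 the double line called Cd82 lower, and against GFP it called 1 higher and 3 lower.

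The integrin ligands held the most calls of the lists tested, and were also the list with the most genes tested. By share they did not stand alone: in the double line against GFP 13 of 23 ligands fell. So did 4 of 6 transcription factors known to repress the E-cadherin gene. Of 28 ligands on the array 23 were tested, and with KSR1 against GFP 2 rose and 10 fell, with a median log2 difference of -1.11 beside 0.04 over all tested probe sets. Lama5, the laminin alpha5 chain bound by alpha3 and alpha6 integrins, rose by 2.76 ± 0.36 (limma adjusted p = 0.000147), from 177 ± 98.2 to 1237 ± 189, and was 865 ± 157 in the double line. Its partner chains Lamb1 and Lamc1 were not called, at 0.07 ± 0.24 and -0.21 ± 0.30. The largest falls were in periostin (Postn, -6.03 ± 0.37), thrombospondin 2 (Thbs2, -5.29 ± 0.41) and the basement membrane collagen Col4a1 (-3.16 ± 0.28).

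From KSR1 to the double line 3 ligands rose and 7 fell. Tgfbi, Col4a1 and Col4a2 rose by 4.12 ± 0.53, 3.48 ± 0.28 and 2.28 ± 0.34 on the log2 scale, and Ccn2 was the largest fall at -3.16 ± 0.47. Against H-RasV12, 1 ligand rose and 11 fell, and against GFP 1 rose and 13 fell, Lama5 being the 1 that rose in each. Fibronectin (Fn1), the ligand of the Itga5 receptor, read 2131 ± 258, 2254 ± 282, 1741 ± 76.3 and 1885 ± 411 in the GFP, H-RasV12, KSR1 and double lines and was not called.

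Of the catenins and other cadherin partners 17 of 21 were on the array and 14 were tested. The core catenins that bind Cdh1, Cdh2 and Cdh11, namely Ctnnb1, Ctnna1 and Ctnnd1, made no call in any comparison. Ezrin (Ezr), a linker of membrane to actin, rose by 1.61 ± 0.22 with KSR1 (limma adjusted p = 0.000191) and fell by 1.01 ± 0.22 from KSR1 to the double line. Lmo7 fell by 0.94 ± 0.26 with KSR1. The desmosomal plakophilin Pkp2 was higher in the double line than with H-RasV12, by 3.29 ± 0.51 (limma adjusted p = 0.000451), and than with GFP, by 2.35 ± 0.51. The 7 other cadherin superfamily genes on the array, desmosomal cadherins among them, were too dim to test.

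Of 6 tested transcription factors known to repress the E-cadherin gene, none rose in any comparison between lines. Snai2 fell by 1.49 ± 0.23 with KSR1 (limma adjusted p = 0.000578), from a mean signal of 3697 to 1279, and Tcf4 fell by 0.79 ± 0.23. From KSR1 to the double line Snai1 fell by 1.65 ± 0.33. The double line had 3 lower than H-RasV12 (Snai2, Twist1 and Tcf4) and 4 lower than GFP. Over these lines Cdh1 itself made no call, with its largest difference at 0.35 ± 0.27 (limma adjusted p = 0.476).

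**Figure D4:**
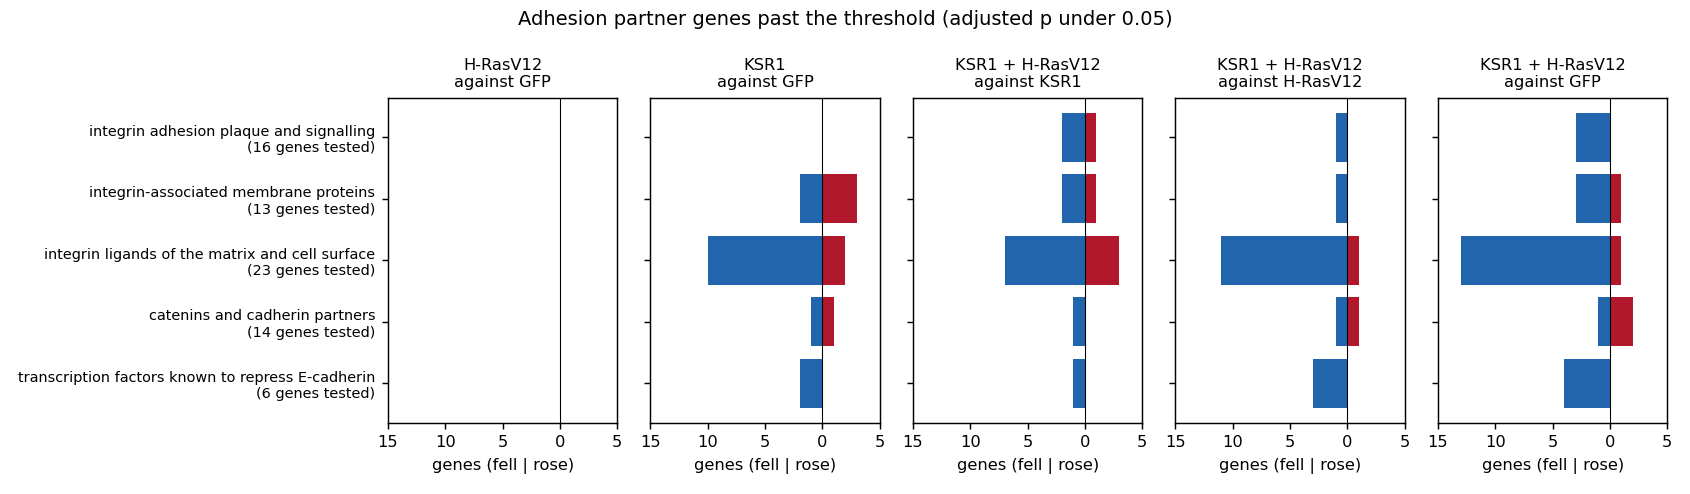
Number of tested partner genes that rose (red, right of 0) or fell (blue, left of 0) at a limma adjusted p under 0.05 in each of 5 comparisons, by list. The integrin ligands, the list with the most genes tested, have the longest bars, 10 fell and 2 rose with KSR1 against GFP. No list has a call for H-RasV12 against GFP.

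The arrays and lines were checked as follows. The probe set Ksr1 92765_s_at read 14.2 to 144 on the 6 arrays without KSR1, 933, 1605 and 207 on the KSR1 arrays and 301, 262 and 141 in the double line. KSR1 replicates 1 and 2 thus lay well above every double-line array, and double-line replicate 3 lay within the range without KSR1. The KSR1 and double lines thus differed in Ksr1 signal as well as in H-RasV12. The part of the Ksr1 level in their differences and in the interaction was not tested. The other Ksr1 probe set, 92764_at, did not separate the lines, with 180.2 to 324 without KSR1 and 216 to 366 with it, and was above the median on all but 1 array. Which part of the gene each probe set reads was not tested. KSR1 replicate 3, the lowest of its line there, was also lowest of its line for both Itga3 probe sets, Itgb7 and Pcdh7, and highest for Itga6 and Cdh2. The control probe set for the 3′ end of 18S RNA read 146 to 516 on GFP replicates 1 and 3, KSR1 replicate 1 and double-line replicate 1, and 1114 to 3312 on the other 8 arrays. With replicates 2 and 3 alone the member counts were again 6 higher for KSR1 against GFP and 6 lower for the double line against KSR1, where 737 and 1031 of all 6897 probe sets were called. Log2 signals correlated at 0.955 to 0.978 within a line and 0.915 to 0.975 between lines.

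Of 11 fibroblast markers 8, 9, 7 and 6 were expressed in the GFP, H-RasV12, KSR1 and double lines, and Thy1, like Vim, was expressed in none. Their summed signal was 49310 to 63310 with GFP, 47920 to 67240 with H-RasV12, 37460 to 39060 with KSR1 and 19160 to 30190 in the double line, so that the lines with KSR1 lay below those without it, and the double line lowest. Not every fibroblast marker followed this sum. Col1a1 read 14040 to 21960 with GFP and 7550 to 9357 with KSR1, and Col1a2 and Col3a1 were lower with KSR1 too. Dcn instead read 2546 to 3223 with GFP and 4161 to 8734 with KSR1, and Pdgfra 1036 to 1711 and 1648 to 2343. Of 10 epithelial markers none was expressed with GFP or H-RasV12, 2 (Krt19 and Cldn3) with KSR1 and 1 (Krt19) in the double line. Their summed signal was 354 to 535 with GFP, 287 to 373 with H-RasV12, 825 to 1538 with KSR1 and 1307 to 1615 in the double line. Krt19 read 59.4 to 137.5 in the lines without KSR1 and 273 to 1427 in the lines with it. The defining marker Epcam read at most 31.4. Of 6 neural markers on the array 3 (Sox10, Nes and Tubb3) were expressed in every line, with sums over the 6 of 5268 to 8013 with KSR1 and 2864 to 4914 elsewhere. Of these 3 only Nes set the KSR1 arrays apart, at 1754 to 2311 with KSR1 and 216 to 460 elsewhere. Tubb3 read 2882 to 5028 with KSR1 and 2197 to 4013 elsewhere, and Sox10 316 to 347 and 241 to 447. The leukocyte sum was 2200 to 4322 with KSR1 and 1433 to 2463 elsewhere, with Cd14 and Laptm5 its expressed members in the KSR1 line. The epithelial, neural and leukocyte sums were on average higher, and the fibroblast sum lower, in the KSR1 line than with GFP, as Itga3, Itga6, Itgb7, Cdh2 and Pcdh7 were higher. In the double line, where Itga3, Itga6 and Pcdh7 were low, the epithelial sum was high too and the fibroblast sum was lowest. Their part in the receptor results was not tested.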

How the data were processed

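Total RNA from the 12 samples (4 lines, 3 arrays each) was labelled by a 1-cycle kit and hybridised to Affymetrix mouse arrays, per the labels' protocols. The deposited values are linear intensities, 1 per probe set and array, made by the authors with MAS5 per the submitters' processing notes; the version is not given in the sources used here. The 2% trimmed mean of an array was 500.3 on average over the 12 arrays, and array medians ran from 160.6 to 216.5. No scaling was added. Gene symbols came from the platform annotation: 10833 probe sets had 1 symbol, 396 several and 1193 none here, and 66 of the 12488 probe sets were controls and stayed out.

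Signals were tested as log2(signal + 23), where 23 is near the 20th percentile of all signals. Probe sets above 181.4 on at least 3 arrays were tested, 6897 in all. One limma fit (limma 3.58.1, R 4.3.3) with 4 line means, 8 residual degrees of freedom and an intensity trend gave two-sided tests, adjusted by Benjamini-Hochberg over those 6897. Errors are SEs of the fit for log2 differences and SDs over 3 arrays for signals. The number of arrays limits the precision. The procedure was tested on simulated data. Named receptors are those called in any comparison or expressed in any line, with the rest given by range; of each partner list up to 3 calls with the largest change in a comparison are named, beside some uncalled partners (Tln1, Vcl, Lamb1, Lamc1, Fn1, Ctnnb1, Ctnna1, Ctnnd1) and further calls chosen after their values were seen. Alternatives were other pseudocounts, filters, normalizations, a replicate block, fits of only the groups compared and leaving out arrays. The receptors, lists and settings were chosen with earlier results of these data known. Promoter sequences are RefSeq's, on GRCm38.p6.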

Additional observations from a re-analysis of the deposited data

Results flagged for a closer look

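For 5 receptor probe sets, both of Itga3 among them, the difference between lines with and without H-RasV12 was not the same with KSR1 as without it. This is by the interaction term of the limma fit over all tested probe sets (3 arrays per line). Each condition is 1 line, so the term cannot be assigned to a response to H-RasV12. The term was -2.80 ± 0.46 on the log2 scale for Itga6 (adjusted p = 0.00179), with 1.33 above GFP in the H-RasV12 line and -1.47 from KSR1 in the double line. For Itga3 it was -2.49 ± 0.59 on the first probe set (adjusted p = 0.0199) and -1.89 ± 0.41 on the second (adjusted p = 0.0117). The H-RasV12 line differed from GFP by -0.03 ± 0.42 and 0.14 ± 0.29 on these, so here the term restates the high KSR1 arrays. Itga6 and the first Itga3 probe set passed the filter only through the KSR1 arrays. The term also shares those arrays with KSR1 against GFP and is no separate support. For Cdh2 it was -1.43 ± 0.37 (adjusted p = 0.0276), and for Itgb5 (100601_at) -1.40 ± 0.31 (adjusted p = 0.0122). Over the alternatives the adjusted p ran up to 0.00737 for Itga6, 0.0633 and 0.0361 for the Itga3 probe sets, 0.0728 for Cdh2 and 0.042 for Itgb5. The Itga3 call on the first probe set was lost in limma without H-RasV12 replicate 2 (-2.17, adjusted p = 0.0585), with KSR1 replicate 2 left out (-2.33, 0.0633) and with replicate 2 of the double line left out (-2.35, 0.0505). The Cdh2 call was lost under 9 of 21 alternatives, 6 of them left-out arrays: GFP replicates 2 and 3, H-RasV12 replicates 1 and 3, and KSR1 replicates 1 and 3.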

How the results depend on the processing

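No tested value that had been called changed direction under any of the 22 alternatives (21 for the interaction). The calls of Itga3, Itga6, Itgb7, Cdh2 and Pcdh7 for KSR1 against GFP, of Itga3, Itga6, Pcdh7 and Itgb5 (100601_at) for the double line against KSR1, and of that Itgb5 probe set against H-RasV12 and GFP, passed under all 22. Counts moved as follows, and the cause was not tested unless a left-out array is named. H-RasV12 against GFP called 1 receptor, Itga6, with replicates 2 and 3 alone, and 0 to 1 as arrays were left out. Of all 6897 probe sets 53 and 1 to 23 were then called. The double line against H-RasV12 called 2 without the filter, which let Cdh11 in, 2 with replicates 2 and 3 alone, and 1 to 2 as arrays were left out. Over all probe sets the calls then numbered 976 of 12422, 1012 of 6897 and 721 to 1129 of 6897. The double line against GFP called 1 with quantile normalization, 1 with only the groups compared in the fit, and 1 to 3 as arrays were left out. Over all 6897 probe sets the calls then numbered 1074, 778 and 740 to 1169. As arrays were left out KSR1 against GFP called 6 each time, the double line against KSR1 5 to 7 and the interaction 4 to 7. Over all 6897 probe sets the calls of these comparisons ran from 482 to 934, 699 to 1181 and 339 to 679. Calls gained in limma with GFP replicate 1 left out were Itgb7 for the double line against KSR1 (adjusted p = 0.0306), against GFP (0.0386) and for the interaction (0.0173), Pcdh7 for the interaction (0.0458) and Cdh2 for the double line against GFP (0.0384). With double-line replicate 1 left out they were Pcdh7 for the interaction (0.0116), Cdh2 for the double line against GFP (0.0118) and Itgav (104386_f_at) for the double line against H-RasV12 (0.0439) and the interaction (0.0468), and with H-RasV12 replicate 2 left out Itgb7 for the double line against KSR1 (0.0291). Centring each array on its median moved the median of all log2 differences from -0.07 to 0.09 for the double line against KSR1 and from -0.08 to 0.09 for the interaction, and the share of calls that were higher to 69.5% and 68.8%, from 563 of 1040 and 287 of 531. With the level set at 100, the receptors expressed in the 4 lines numbered 15, 16, 19 and 14.

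The replicate block called 0, 6, 7, 1, 3 and 6 receptors in the order H-RasV12 against GFP, KSR1 against GFP, the double line against KSR1, against H-RasV12 and against GFP, and the interaction, where the fit without it called 0, 6, 6, 1, 2 and 5. Over all 6897 probe sets calls rose too, to 10, 1047, 1290, 1265, 1317 and 741 from 5, 813, 1040, 1022, 1079 and 531. It added Itgb7 for the double line against KSR1 (adjusted p = 0.0482 in limma), Cdh2 for the double line against GFP (0.037) and Pcdh7 for the interaction (0.00559). Deviations of same-numbered arrays correlated above 0.1 in all 3 pairs for GFP with KSR1, H-RasV12 with KSR1 and KSR1 with the double line (0.12 to 0.51), but not in all 3 for the other line pairs (-0.02 to 0.38). Of 12 arrays 10 correlated best with their own number. The labels do not state whether the numbers mark a shared source, and this was not tested.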
